A study of Bos taurus with 21 samples.

Results

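The interferon response genes examined here were 9 listed symbols: MX1, MX2, ISG15, RSAD2, IRF7, DDX58, IFIH1, IFI6 and OAS1X. They were chosen by name, and 7 of the 9 had a row among the 13570 gene rows of the count data. DDX58 and IFIH1, the cytosolic sensors of double-stranded viral RNA, had no row and were not analysed here. The 7 genes with a row were counted in every cow, and together they took 0.02 to 0.211% of the counts on genes, with a median of 0.0662%.

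Type I interferons are secreted when a cell senses viral or bacterial nucleic acid. They bind the receptor chains IFNAR1 and IFNAR2, the kinases JAK1 and TYK2 then activate STAT proteins, and these enter the nucleus with IRF9 and switch on a large set of antiviral genes. Milk somatic cells are a mixture of leukocytes, chiefly macrophages, neutrophils and lymphocytes, and of epithelial cells shed from the udder, and all of these cell types can respond to interferon.

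RNA sequencing was done on milk somatic cells of 21 Holstein cows, each sampled once. By the labels, 9 cows belonged to a high (HY) and 12 to a low (LY) milk-yielding group. All cows were untreated as far as the labels say, in their parity 2 to 4. The lactation period, given as a number that the study treats as days in milk, spanned 41 to 268 in the HY cows (median 168) and 52 to 270 in the LY cows (median 211.5). Each cow also had values for milk yield, fat, protein and solid, whose units the labels do not give. The study derived its milk yield trait from a production index and calls it a breeding value. All 4 are read here as breeding values and not as measured amounts of milk. Milk yield lay between 181.118 and 468.053 for the HY cows and between -404.27 and 86.92 for the LY cows, so the groups did not overlap in the trait that defines them.

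The counts on genes per cow were 7878557 to 25550423 in HY and 8585010 to 28541904 in LY. Markers of the cell types varied widely: 13 of 14 milk epithelial markers had a row and took 0.123 to 60.6% of the counts, 12 of 15 neutrophil markers 0.13 to 1.2%, 12 of 14 macrophage markers 0.128 to 1.64%, and 10 of 11 T cell markers 0.00299 to 0.156%. CXCR1, a defining receptor of neutrophils, and GZMB, a granule protease of cytotoxic lymphocytes, had no count in any cow. By a supplement of the study, 16 cows (8 HY and 8 LY) had a lower share of mapped reads and 5 (1 HY and 4 LY) a higher one, and the fits and correlations of the 7 genes below were repeated within the 16 cows. In a bulk sample of this kind, fewer cells of a type and less RNA per cell cannot be told apart. Levels below are CPM, counts scaled to a common library size with TMM factors. They were not divided by gene length, so they compare cows for 1 gene and not genes with each other.

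MX1, which encodes a dynamin-like GTPase that blocks the replication of several viruses, had levels of 48.91 to 565.9 CPM over the 21 cows with a median of 163.7 CPM. Its paralog MX2 ran from 9.952 to 302.3 CPM with a median of 64.89 CPM, a 30.4-fold range. RSAD2 (viperin), a radical SAM enzyme that makes a chain terminator of viral RNA synthesis, ran from 7.543 to 148.8 CPM with a median of 32.05 CPM. The same cow, LY7, was highest in MX1, MX2 and RSAD2. OAS1X, one of the bovine oligoadenylate synthetases that activate RNase L, was the least counted of the 7, with 15 to 2490 reads per cow. It ran from 1.718 to 88.63 CPM with a median of 10.46 CPM, a 51.6-fold range, and LY7 again was highest. Its neighbours OAS1Y and OAS1Z are near copies, so that reads could have been split between them and its values are uncertain.

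ISG15 encodes a ubiquitin-like protein that is attached to other proteins during the response. It ran from 47.47 to 883.6 CPM with a median of 199.7 CPM, lowest in LY1 and highest in LY2. IRF7, the transcription factor that drives most interferon-alpha genes, ran from 6.564 to 139.9 CPM with a median of 31.71 CPM, lowest in HY6 and highest in HY7. IFI6, a small membrane protein of mitochondria and endoplasmic reticulum, ran from 6.605 to 63.2 CPM with a median of 24.25 CPM, lowest in LY1 and highest in HY8. No cow was highest in both ISG15 and IRF7 or in both ISG15 and IFI6.

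The spread of log2(CPM + 0.25) over cows was compared with that of the 9297 genes with a mean of at least 1 CPM, whose median SD was 0.70. MX2 had an SD of 1.43 and OAS1X of 1.40, above those of 93.0% and 92.0% of these genes. RSAD2 (SD 1.23), IRF7 (1.12) and ISG15 (1.08) were above 86.6%, 81.6% and 79.9%. MX1 (0.83) and IFI6 (0.72) were closer to the middle, above 63.0% and 52.7%. These percentages describe the 21 cows and carry no test.

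The genes did not peak in the same cows. LY7, at 262 days of lactation, was the highest cow in 4 of the 7 genes, with 565.9 CPM of MX1, 302.3 of MX2, 148.8 of RSAD2 and 88.63 of OAS1X. Its IRF7 (42.9 CPM) and ISG15 (385.8 CPM) were above the median and its IFI6 (20.1 CPM) below it. HY3, at 268 days, was among the 3 highest cows in MX1 (403.2 CPM), RSAD2 (135.7 CPM) and IRF7 (107.5 CPM). LY5, at 102 days, was among the 3 highest in MX2 (164.6 CPM), RSAD2 (92.7 CPM) and OAS1X (35.4 CPM).

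Other cows were high in 1 set of genes and low in another. LY2, at 59 days, had the highest ISG15 (883.6 CPM) together with the lowest OAS1X (1.718 CPM), and its MX2 (10.42 CPM) was the second lowest. HY8, at 65 days, had the highest IFI6 (63.2 CPM) and the lowest MX2 (9.952 CPM). HY5, at 220 days, was among the 3 highest in MX1 (407 CPM) and MX2 (276.6 CPM) and among the 3 lowest in ISG15 (87.5 CPM) and IRF7 (16.8 CPM). LY12 had 624.8 CPM of ISG15 and 127.3 CPM of IRF7, and OAS1X at 2.8 CPM. LY1, at 270 days, was lowest in ISG15 and IFI6 and among the 3 lowest in IRF7, while its MX1 (171.4 CPM) was above the median and its MX2 (64.89 CPM) was the median. The longest lactations in LY thus belonged to the cow lowest in ISG15 and IFI6 and to the cow highest in the 4 genes named before.

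**Figure D1:**
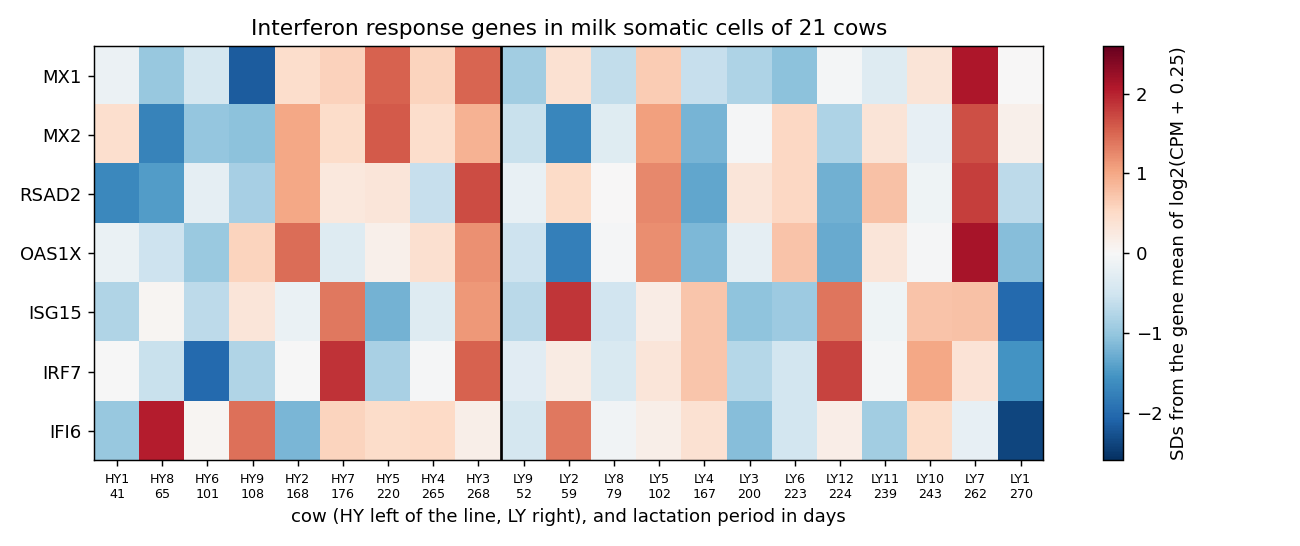
Each row is 1 gene and each column 1 cow, ordered within HY and LY by lactation period in days; colour is the distance of log2(CPM + 0.25) from the gene's mean, in SDs of that gene over 21 cows. LY7 is dark red in the top 4 rows, while LY2 is red in ISG15 and IFI6 and blue in MX2 and OAS1X.

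Whether the genes varied together was examined over the 21 cows. The median Pearson r of the 21 pairs was 0.245, and the pairs ranged from -0.456 to 0.79. For 3 pairs the relation passed an adjusted p of 0.05 over all genes in both directions (limma slopes of log2(CPM + 0.25), each gene on each of the 7): MX2 with RSAD2, ISG15 with IRF7, and ISG15 with IFI6. Within the 16 cows, ISG15 with IRF7 was the 1 pair that passed (7.49% of all genes called on ISG15 and 4.44% on IRF7), and with each cow left out in turn 2 to 5 pairs did (5 without LY1 or HY5). The pair ISG15 with IFI6 lost its call without LY1, LY2, LY3, LY4, LY6, LY8, LY9, LY10, LY12 or HY7, with r of 0.462 to 0.604, and MX2 with RSAD2 without HY8 (r = 0.571) or LY7 (r = 0.559). The share of all genes called differed widely between the fits, and the counts are read beside it. In the fit on MX2, 30.3% of all genes and 3 of the other 6 were called. The counts were 2 of 6 on ISG15 (10.4% of all genes), 3 of 6 on RSAD2 (12.3%), 1 of 6 on IRF7 (12.6%) and 1 of 6 on IFI6 (18.1%). None of the 6 was called on MX1 (0.0405% of all genes) or OAS1X (0.00811%).

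MX1, MX2, RSAD2 and OAS1X had positive correlations with each other in all 6 pairs. MX2 and OAS1X had r = 0.754 (rho = 0.749), and their permutation p was 0.00011 for r. MX1 and MX2, which are adjacent in the ARS-UCD2.0 gene order with no protein-coding gene between them, had r = 0.679 (rho = 0.677, permutation p = 0.00059). RSAD2 had r = 0.656 with OAS1X (rho = 0.632, permutation p = 0.00136) and 0.629 with MX2 (rho = 0.673, permutation p = 0.00235). It had r = 0.586 with MX1 (rho = 0.522, permutation p = 0.00496). MX1 and OAS1X were the weakest pair, with r = 0.381 (rho = 0.319, permutation p = 0.0873). When the 2 cows with the most extreme level of the first gene were dropped, these values were 0.345 to 0.724. Without those most extreme in the second gene they were 0.276 (MX1 with OAS1X) to 0.777 (MX1 with MX2), and 0.365 for MX1 with RSAD2. Within the 16 cows r was 0.147 for MX1 with OAS1X and 0.46 to 0.652 for the other 5 pairs. MX2 and OAS1X correlated with r = 0.926 in LY and 0.529 in HY, a difference that was not tested.

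ISG15 and IRF7 had the highest correlation of the 21 pairs, with r = 0.79 (rho = 0.788, permutation p = 2e-05). It was 0.83 without the 2 cows most extreme in ISG15, 0.801 without those most extreme in IRF7, 0.763 within the 16 cows, 0.778 in HY and 0.86 in LY. ISG15 and IFI6 had r = 0.597 (rho = 0.565, permutation p = 0.00379), which came to 0.366 without the 2 cows most extreme in ISG15 and to 0.551 without those most extreme in IFI6. That pair had r = 0.884 in LY and 0.259 in HY. IRF7 and IFI6 had r = 0.245 (rho = 0.209, permutation p = 0.283).

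Between MX1, MX2, RSAD2 or OAS1X and the other 3 genes, r ran from -0.456 to 0.389. ISG15 had r = 0.253 with MX1 (rho = 0.309, permutation p = 0.267), -0.236 with MX2 (rho = -0.179, permutation p = 0.303), 0.168 with RSAD2 and -0.0392 with OAS1X. IRF7 had r = 0.389 with MX1 (rho = 0.481, permutation p = 0.0821 and 0.0295), close to that of MX1 with OAS1X, and 0.107 to 0.169 with MX2, RSAD2 and OAS1X. IFI6 was below 0 with MX1, MX2, RSAD2 and OAS1X, lowest with MX2 at r = -0.456 (rho = -0.366, permutation p = 0.0374). This pair had -0.196 without the 2 cows most extreme in MX2 and -0.405 without those most extreme in IFI6. The permutation p-values of the 21 pairs were not adjusted over the pairs. The grouping of MX1, MX2, RSAD2 and OAS1X was seen in these values and has no test of its own, and IRF7 had a higher r with MX1 than with IFI6.

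**Figure D2:**
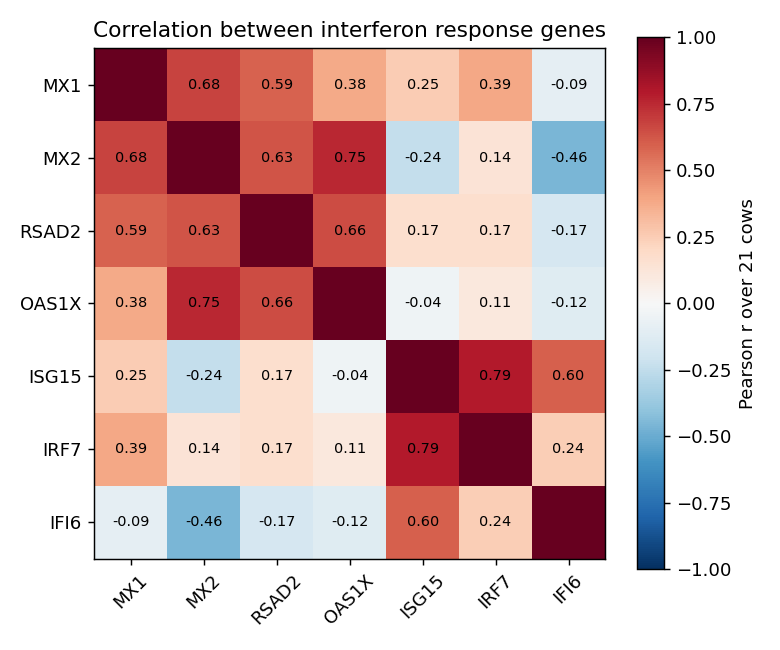
Each cell gives the Pearson r of log2(CPM + 0.25) between 2 of the 7 genes over 21 cows, with red above 0 and blue below. The upper left block of MX1, MX2, RSAD2 and OAS1X holds values of 0.38 to 0.75, ISG15 with IRF7 reaches 0.79, and MX2 with IFI6 lies at -0.46.

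Several measures of the libraries and of the cell mixture moved with single genes. The TMM scaling factor, which is low where a few genes take many of the reads, had r = 0.724 with MX2 (limma adjusted p = 0.000933) and -0.633 with IFI6 (adjusted p = 0.00825), in a fit that called 31.7% of all genes. The share of reads outside annotated genes had r = 0.59 with RSAD2 (limma adjusted p = 0.0306, 12.7% of all genes called). The summed level of the neutrophil markers had r = 0.651 with IRF7 (limma adjusted p = 0.0311, 3.48% of all genes called) and 0.585 with ISG15 (adjusted p = 0.0662). IRF7 also had r = 0.521 with the summed macrophage markers (adjusted p = 0.043, 23.6% of genes called) and -0.532 with the summed epithelial markers (adjusted p = 0.0407, 20.9% of genes called). Each sum weighs its most counted markers most. Singly, the macrophage markers had r of -0.68 (MSR1) to 0.72 (CTSD) with IRF7, with a median of only 0.13. The epithelial markers had -0.55 (CSN1S2) to 0.09 (KRT18), with a median of -0.52. MX1 and OAS1X were called with no list or library measure. None of the 7 was called with the T cell, cytotoxic, B cell or plasmacytoid dendritic cell markers, where 4.32, 18.6, 0 and 7.15% of all genes were, or with total counts, where 0% were. Plasmacytoid dendritic cells, the leukocytes that secrete most interferon-alpha, had 5 of 7 markers with a row, GZMB among them at 0 in all cows, and these took 0.00133 to 0.017% of the counts. Their summed level had r of -0.448 to 0.147 with the 7 genes. Most of this sum was IRF8, which is also listed here as a type II interferon target. It had a mean of 53.22 CPM, beside 7.941 for LILRA4, 7.176 for SPIB and 2.119 for TCF4. The single markers differed: r with MX2 was -0.18 for IRF8, -0.01 for LILRA4, -0.41 for SPIB and 0.77 for TCF4. The part of these measures in the relations between the genes was not tested.

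The genes closest to the whole set were found by the median of r to the 7, among the 9297 genes with a mean of at least 1 CPM. OAS1Z, another oligoadenylate synthetase, whose counts share the uncertainty of OAS1X, came first with a median r of 0.665. Among the others were the interferon targets PARP9 (0.633), ZNFX1 (0.632), EIF2AK2 (0.604), which is the kinase that stops translation on double-stranded RNA, and OAS2 (0.594). SMU1 (0.641), CDK12 (0.616), ELF1 (0.606) and CWC25 (0.6) were also among the 10. The ranking used the same cows as the correlations above and is a description.

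The 7 genes had different nearest genes. MX2 lay closest to OAS1Z (r = 0.931) and PAPSS2 (0.924), and OAS1X to OAS1Z (0.81), C2CD3 (0.771) and RBMX (0.761). MX1 lay closest to A2M (0.858), to USP18 (0.812), the protease that removes ISG15 from proteins and dampens receptor signalling, and to ABHD2 (0.805). RSAD2 had ARID4A (0.861), YPEL5 (0.849) and RAP2C (0.842). ISG15 had RETN (0.913), TCIRG1 (0.912) and DEDD2 (0.904), and IRF7 had SH3BP2 (0.956), CD81 (0.943) and JUNB (0.939). IFI6 lay closest to POLR2J (0.801) and to the proteasome subunits PSMB3 (0.79) and PSMC1 (0.786). Only OAS1Z appeared among the top 3 of more than 1 of the 7.

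Of 59 other listed targets of type I interferon, 40 had a row and 39 a mean of at least 1 CPM. Their median r was 0.422 with MX1, 0.385 with MX2, 0.333 with RSAD2 and 0.212 with OAS1X, beside medians of 0.0325, 0.0759, 0.00302 and 0.0256 over all genes at that level. It was 0.249 with IRF7 and 0.142 with ISG15, beside 0.00107 and -0.0458 over all genes. For IFI6 it was -0.132, beside -0.0395 over all genes. An r above 0.5 was reached with MX1 by 41% of the targets and 7.06% of all genes, and with MX2 by 33.3% and 22.3%. The shares were 41% and 10.6% with RSAD2, and 30.8% and 7.43% with OAS1X. With IRF7 they were 33.3% and 13.5%, with ISG15 23.1% and 9.74%, and with IFI6 2.56% and 13.3%.

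The targets also differed in which of the 7 they had the highest r with, called nearest here. Some assignments were close or weak. IFIT5 had r = 0.77 with MX2 and 0.76 with RSAD2, and DTX3L 0.79 with RSAD2 and 0.78 with MX2. OASL reached at most 0.26 and APOBEC3B at most 0.27 with any of the 7. The oligoadenylate synthetases OAS1Z and OAS2, the kinase EIF2AK2, the ADP-ribosyltransferases PARP9 and PARP14, and IFIT5 were among the 8 nearest to MX2. IFIT3, HERC5, SAMD9 and DTX3L were among the 8 nearest to RSAD2, and STAT2 and ZNFX1 among the 7 nearest to MX1. UBE2L6, the conjugating enzyme of the ISG15 pathway, IFI35, XAF1, PML, PARP12 and IRF9 were the 6 nearest to ISG15. IFITM1 and IFITM3, which hinder viral entry, TAP1 and UBA7, the activating enzyme of the ISG15 pathway, were among the 8 nearest to IRF7. IFI27 and LGALS3BP were nearest to IFI6, with r of only 0.2 and 0.48, and none of the 39 was nearest to OAS1X. EIF2AK2 had r = 0.84 with MX2 and -0.18 with ISG15, while IRF9, the DNA-binding subunit of the factor that switches these genes on, had r = 0.89 with ISG15 and -0.21 with MX2.

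**Figure D3:**
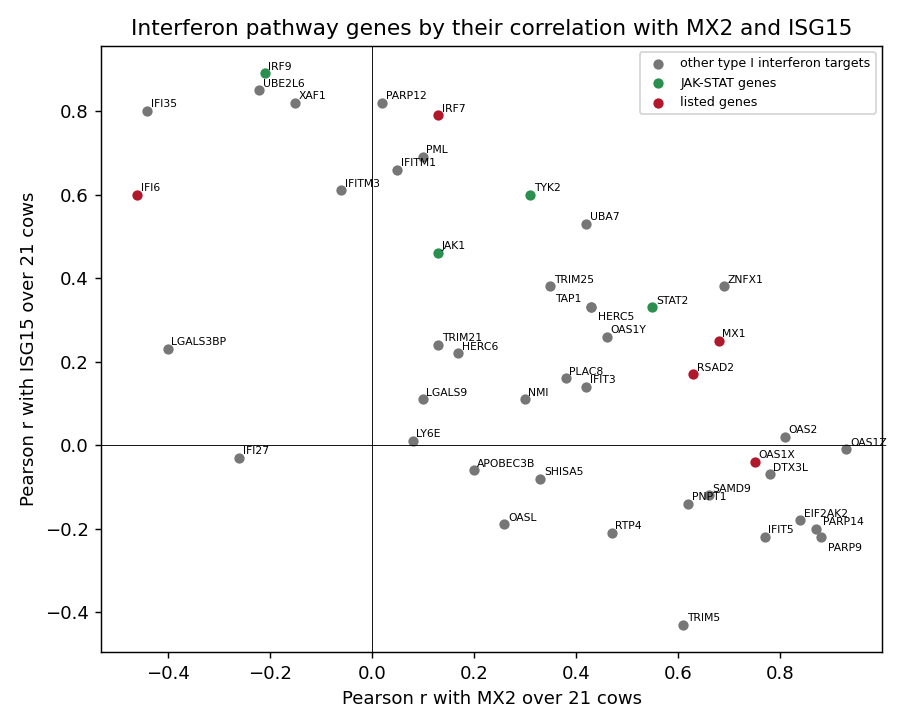
Each point is a gene with a mean of at least 1 CPM, placed by its Pearson r with MX2 (horizontal) and with ISG15 (vertical) over 21 cows, for 5 of the 7 interferon response genes (red), 4 JAK-STAT genes (green) and other type I interferon targets (grey). EIF2AK2 and OAS1Z lie at the right with r of 0.84 and 0.93 to MX2, and IRF9 and UBE2L6 at the top with r of 0.89 and 0.85 to ISG15.

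The cow in which most of the 39 targets were highest was LY7, with 13 of them (33.3%), while it was the highest cow for 4.66% of the 9297 genes. The 13 included OAS1Z, OAS2, IFIT5, HERC5, HERC6, EIF2AK2, SAMD9 and ZNFX1. LY2, the cow with the highest ISG15, was highest in 6 targets, among them IFI35, UBE2L6, XAF1 and IRF9, and in 7.48% of all genes. HY3 was also highest in 6, with PARP9 and TAP1 among them, and in 5.27% of all genes. No target was highest in HY7, which had the highest IRF7 and was the highest cow for 3.29% of all genes. HY9, the highest cow for 14.6% of all genes, had none either.

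HY and LY were compared to see whether the genes differed with milk yield group. None of the 7 differed at p under 0.05 (edgeR quasi-likelihood test), where 4.7% of all genes did, and the adjusted p was 0.999 for each (0% of all genes passed after adjustment). MX1 had a median of 219.6 CPM in HY (48.91 to 407) and of 151.7. CPM in LY (91.89 to 565.9) The difference, HY minus LY, was 0.20 ± 0.35 (SE) on the log2 scale (p = 0.573), and the group ranges overlapped. MX2 had a median of 89.37 CPM in HY (9.952 to 276.6) and of 50.37. CPM in LY (10.42 to 302.3) Its log2 difference was 0.35 ± 0.55 (edgeR p = 0.532).

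RSAD2 had a median of 25.96 CPM in HY (7.543 to 135.7) and of 36.98 CPM in LY (9.949 to 148.8), a log2 difference of -0.21 ± 0.50 (edgeR p = 0.678). OAS1X had a median of 12.43 CPM in HY (4.084 to 44.97) and of 9.467. CPM in LY (1.718 to 88.63) Its fitted log2 difference was -0.016 ± 0.59 (edgeR p = 0.979), while the mean of log2(CPM + 0.25) was 0.48 higher in HY (exact permutation test, two-sided, p = 0.446). The fitted difference lay at about 0 and had no stable sign: it was 0.659 without LY7 and 0.0237 to 0.149 without HY1, HY5, HY6, HY7, HY8, LY5 or LY6. For MX1, MX2, RSAD2 and OAS1X, the cow with the highest level belonged to LY, and the cows with the lowest levels came from both groups.

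ISG15 had a median of 191.6 CPM in HY (87.45 to 614.9) and of 227.1 CPM in LY (47.47 to 883.6), a log2 difference of -0.23 ± 0.44 (edgeR p = 0.606). IRF7 had a median of 31.71 CPM in HY (6.564 to 139.9) and of 34.94 CPM in LY (9.509 to 127.3), a log2 difference of 0.086 ± 0.46 (edgeR p = 0.856). IFI6 had a median of 28.68 CPM in HY (12.34 to 63.2) and of 20.78. CPM in LY (6.605 to 44.88) IFI6 was the gene with the lowest p of the 7, with a log2 difference of 0.47 ± 0.30 (edgeR p = 0.122, exact permutation p = 0.179). HY8 and HY9 were above the highest LY cow, and the other 7 HY cows lay within the LY range. In HY8 and HY9 the epithelial markers took 60.6% and 56.6% of the counts, the highest shares of all cows. Their TMM factors, 0.460 and 0.498, were the lowest. Without HY8 the IFI6 difference was 0.25 (edgeR p = 0.397). The part of the library composition in this difference was not tested. Exact permutation tests of the other 6 genes gave p of 0.446 to 0.884.

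**Figure D4:**
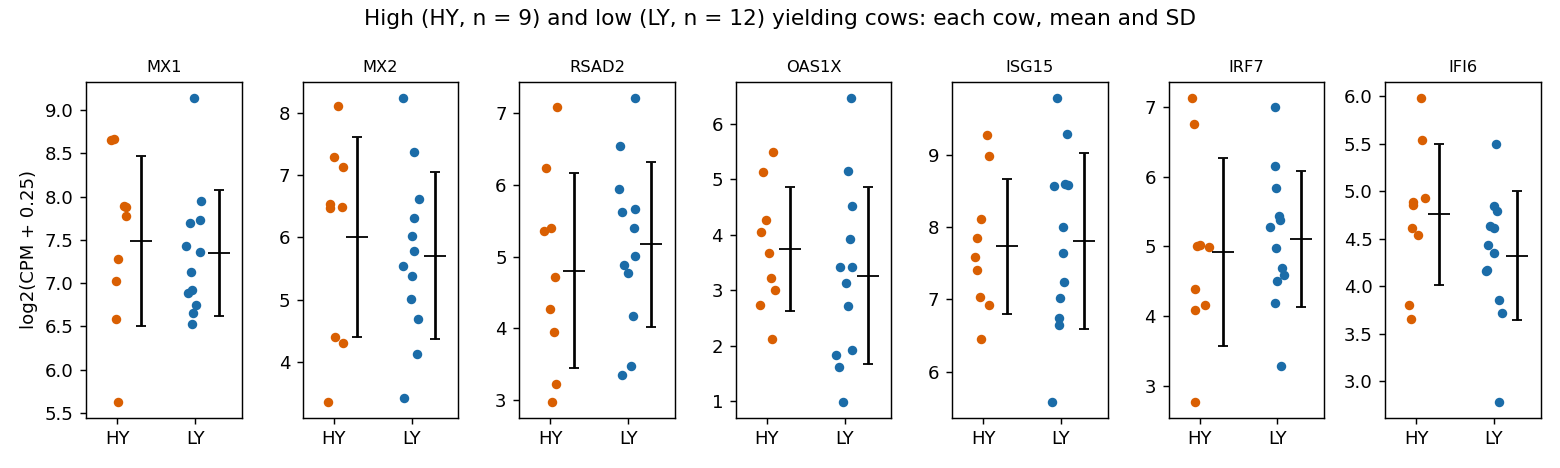
Points are single cows, with log2(CPM + 0.25) on a separate vertical axis for each gene, and the bars beside them are the group mean ± SD for HY (n = 9, orange) and LY (n = 12, blue). The groups overlap in all 7 genes, and LY7 is the top LY point in MX1, MX2, RSAD2 and OAS1X.

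The lactation period was compared with each gene as a slope over all 21 cows. MX1, MX2 and OAS1X were higher at longer lactation at an unadjusted p under 0.05 (edgeR), where 22.3% of all genes passed in either direction, 9.58% upwards and 12.8% downwards. None of the 7 passed after adjustment, as against 0.0243% of all genes. MX1 had a slope of 0.52 ± 0.19 (SE) log2 per 100 days, 1.43-fold (p = 0.0106, adjusted p = 0.119). The 3 cows with the highest MX1, LY7, HY5 and HY3, were at 262, 220 and 268 days, but LY1 at 270 days had 171.4 CPM and LY6 at 223 days 91.9 CPM. MX2 had a slope of 0.78 ± 0.32, 1.71-fold per 100 days (edgeR p = 0.0228, adjusted p = 0.161). Its lowest cows, HY8 and LY2, were at 65 and 59 days, whereas LY5 at 102 days had 164.6 CPM.

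OAS1X had a slope of 0.73 ± 0.35 log2 per 100 days (edgeR p = 0.0495, adjusted p = 0.223), and RSAD2 one of 0.58 ± 0.29 (p = 0.0566, adjusted p = 0.238). IRF7 had 0.50 ± 0.29 (edgeR p = 0.0967, adjusted p = 0.307). IFI6 had -0.33 ± 0.18 (edgeR p = 0.0795, adjusted p = 0.28), and its 3 highest cows, HY8, HY9 and LY2, were at 65, 108 and 59 days. ISG15 had -0.011 ± 0.28 (edgeR p = 0.969, adjusted p = 0.986), with its 3 highest cows at 59, 224 and 176 days. The median slope of the 7 was 0.518, beside 0.025 over all genes tested.

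The slope of MX1 had p under 0.05 with each of the 21 cows left out in turn (0.00414 to 0.046). That of MX2 did in 20 of 21 fits, with p = 0.0801 without LY7, and that of OAS1X in 11 of 21, with p = 0.334 and a slope of 0.347 without LY7 and p of 0.0525 to 0.0831 without HY1, HY3, HY6, HY7, HY8, LY2, LY6, LY8 or LY9. Without LY7, 1 of the 7 genes passed, and without LY1 5 did, RSAD2 (p = 0.03) and IRF7 (p = 0.0357) being added. Within the 16 cows none of the 7 passed, where 20% of all genes did: MX1 had a slope of 0.438 (edgeR p = 0.0528), MX2 of 0.667 (p = 0.081) and OAS1X of 0.391 (p = 0.265). With the mapping set as a covariate, OAS1X had 0.521 (p = 0.149) and MX1 and MX2 stayed under 0.05 (p = 0.0169 and 0.0365).

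As correlations of log2(CPM + 0.25) with the lactation period, MX1 had r = 0.471 (rho = 0.435, permutation p = 0.0315 and 0.0504) and MX2 r = 0.523 (rho = 0.464, permutation p = 0.0164 and 0.0355). After the 2 cows with the most extreme lactation period were dropped, r came to 0.455 for MX1 and 0.603 for MX2, after the 2 with the most extreme level of the gene to 0.384 and 0.372, and within the 16 cows to 0.4 and 0.518. RSAD2 had r = 0.346 (rho = 0.321, permutation p = 0.125 and 0.157) and OAS1X r = 0.322 (rho = 0.313, permutation p = 0.153 and 0.165). These are among 35 such relations computed, 7 genes with 5 measures. The TMM factor had r = 0.361 with the lactation period, the share of reads outside genes 0.477 and the summed T cell markers 0.376. The summed plasmacytoid dendritic cell markers, mostly IRF8, had -0.371. The summed epithelial markers, with which MX1 and MX2 had r of -0.419 and -0.437, had r = -0.165. Singly, 12 of 13 epithelial markers had a slope below 0 (median -0.893 log2 per 100 days, beside 0.025 over all genes). Downwards, 4 of the 13 had p under 0.05, LALBA, PAEP, GLYCAM1 and KRT19 (edgeR, lowest adjusted p = 0.192), beside 12.8% of all genes. The part of these measures in the slopes of the 7 genes was not tested.

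**Figure D5:**
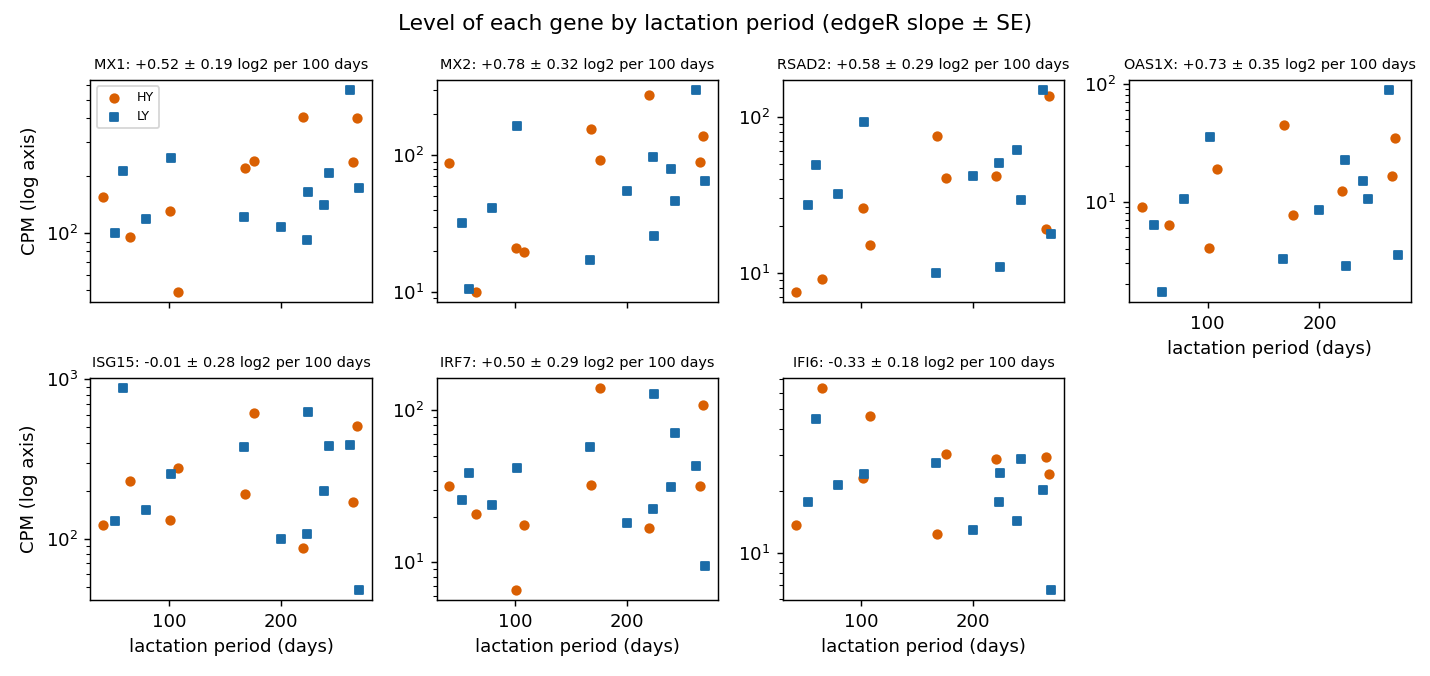
Each panel plots the CPM of 1 gene on a log axis against the lactation period in days, with HY cows as orange circles and LY cows as blue squares, and gives the edgeR slope ± SE above it. The slopes of MX1, MX2 and OAS1X were 0.52, 0.78 and 0.73 log2 per 100 days, while that of ISG15 was -0.01.

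The slope was then compared between the groups. RSAD2 was the only one of the 7 with p under 0.05 in this interaction, where 2.61% of all genes passed: its slope was 1.24 ± 0.58 log2 per 100 days steeper in HY (edgeR p = 0.0421, adjusted p = 1, with 0% of all genes passing after adjustment). The p of RSAD2 was 0.0509 to 0.202 with HY1, HY3, HY8, HY9, LY1, LY2, LY5 or LY10 left out and under 0.05 in the other 13 fits. RSAD2 had r = 0.731 with the lactation period in HY and -0.0139 in LY. In HY, the cows at 41, 65, 101 and 108 days had 7.543, 9.102, 25.96 and 15.12 CPM of RSAD2, those at 168, 176 and 220 days 75.38, 40.66 and 41.93 CPM, and the last 2, at 265 and 268 days, 19.06 and 135.7 CPM. In LY, the cows at 52, 59, 79 and 102 days had 27.11, 48.89, 32.05 and 92.73 CPM, and the other 8, at 167 to 270 days, had 9.949 to 148.8 CPM, highest in LY7 at 262 days. MX1 had r = 0.733 in HY and 0.251 in LY, and its slopes differed by 0.49 ± 0.37 (edgeR p = 0.2). The estimates of all 7 genes were above 0, as were those of 44.9% of all genes. Within the 16 cows, 3 of the 7 and 2.91% of all genes had p under 0.05: RSAD2 (1.94 steeper in HY, edgeR p = 0.00177), MX1 (0.978, p = 0.0178) and ISG15 (1.4, p = 0.0354), each with an adjusted p of 1.

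The milk traits were regressed on log2(CPM + 0.25) of each gene. None of the 7 passed p under 0.05 for milk yield, fat, protein or solid, where 2.49, 2.3, 2.3 and 1.65% of all genes did, and every adjusted p was 1 (0% of all genes passed after adjustment). For milk yield, OAS1X had the highest r of the 7, at 0.349 (permutation p = 0.121; rho = 0.439, permutation p = 0.0474). MX2 had r = 0.333 (rho = 0.371, permutation p = 0.14 and 0.0981) and MX1 0.232 (rho = 0.313, permutation p = 0.312 and 0.167). Within the groups, MX2 had r = 0.585 in HY and 0.435 in LY, OAS1X 0.425 and 0.381, and MX1 0.423 and 0.262. The r of MX1 came to 0.524 without the 2 cows with the most extreme MX1 and to 0.0692 without the 2 with the most extreme milk yield. ISG15, IRF7 and RSAD2 had r of -0.0599 to 0.0144 with milk yield, and ISG15 had -0.423 in HY and 0.135 in LY.

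For milk protein, all 7 genes had r above 0, as did 48.4% of all genes, from 0.0229 for RSAD2 to 0.343 for MX2 and OAS1X (rho = 0.314 and 0.36, permutation p of r = 0.129 and 0.126). For milk solid, OAS1X had r = 0.37 (rho = 0.431, permutation p = 0.0988 and 0.0515), the lowest p of r among the 28 relations with a milk trait. For milk fat, the 7 genes had r of -0.157 (RSAD2) to 0.201 (IFI6), with permutation p of 0.383 for IFI6 (rho = 0.273, permutation p = 0.231). MX2 and OAS1X thus had like r with yield, protein and solid, which are breeding values given for the same cows, and r near 0 with fat.

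The rest of the pathway was described from listed genes, with the same fits. Of 23 ligand genes, 7 had a count. For lactation, 1 (IFNB1) had p under 0.05 upwards and 1 (IFNAH, counted in 1 cow) downwards, beside 9.58% and 12.8% of all genes. IFNG, the type II interferon, had a mean of 1.962 CPM and was counted in 20 cows. IFNB1, the first type I interferon made by most cells, had a mean of 0.1978 CPM and was counted in 10 cows. Its slope on lactation was 1.39 ± 0.61 log2 per 100 days (edgeR p = 0.0329, adjusted p = 0.187) and its r with the 7 genes ran from -0.03 (OAS1X) to 0.5 (IRF7), with 0.29 for ISG15 and 0.22 for MX1.

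Among 5 receptor genes, IFNAR1 had a slope of 0.78 ± 0.22 log2 per 100 days (edgeR p = 0.00162, adjusted p = 0.0717) and IFNAR2 one of 0.44 ± 0.21 (p = 0.043, adjusted p = 0.209). IFNAR1 had r = 0.86 with MX2 and -0.17 with ISG15, whereas IFNAR2 had 0.41 and 0.62. None of the 5 JAK-STAT genes passed, with -0.16 for IRF9 (edgeR p = 0.517). Of 15 sensors and adaptors 5 passed p under 0.05, beside 22.3% of all genes, of which TLR3, TLR8, TLR9 and TRAF3 were higher at longer lactation and IRF3 was lower. MYD88, the adaptor of most Toll-like receptors, had a mean of 549.7 CPM over the cows.

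Of the 40 other type I targets, 12 had p under 0.05 with a higher level at longer lactation and 1 (LGALS3BP) with a lower one, beside 9.58% and 12.8% of all genes, and none passed after adjustment. The median slope was 0.202, beside 0.025 over all genes. SAMD9, an antiviral factor against poxviruses, had 0.94 ± 0.24 log2 per 100 days (edgeR p = 0.000514, adjusted p = 0.0639), EIF2AK2 0.73 ± 0.22 (p = 0.00321, adjusted p = 0.0852) and IFIT3 0.76 ± 0.23 (p = 0.00329, adjusted p = 0.0854). OAS2 had 0.88 ± 0.29 (edgeR p = 0.00602, adjusted p = 0.0992). Among 10 negative regulators, 6 passed p under 0.05 and all 6 were higher at longer lactation, beside 9.58% of all genes. They included TNFAIP3, which restrains NF-kappaB, with 1.32 ± 0.40 (edgeR p = 0.00271, adjusted p = 0.0811), and USP18 with 0.55 ± 0.21 (p = 0.0129, adjusted p = 0.127). Between HY and LY, 4.7% of all genes had p under 0.05 (edgeR). Of the 40 targets 1 did (OAS1Y, 0.60 higher in HY on the log2 scale, edgeR p = 0.0371, adjusted p = 0.999). None of the receptors, JAK-STAT genes, sensors or negative regulators did. Among the ligands IFNK did (edgeR p = 0.0288, adjusted p = 0.999), with at most 6 reads in a cow.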

How the data were processed

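Milk somatic cell RNA of 21 cows (9 HY, 12 LY) was sequenced. Per the labels and the study's methods, the authors trimmed reads with Trimmomatic (minimum length 75), aligned them to the bovine genome bosTau7 with TopHat2 and Bowtie2, and deposited raw counts of reads per gene from HTSeq. Tool versions were not given in the sources used here. HTSeq leaves out reads that map to several places, which lowers the counts of near-identical genes. Whether the counting used strand is not given in the sources used here.

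From these counts, genes without any count were dropped, leaving 12333, and counts were scaled by TMM. HY against LY, lactation period (per 100 days) and their interaction were fitted with edgeR 4.0.16 quasi-likelihood tests. Milk traits were regressed on log2(CPM + 0.25), as in the study, and slopes of all genes on each of the 7 genes, on marker sums and on library measures were fitted with limma 3.58.1. Adjustment was by Benjamini-Hochberg over all genes tested. Correlations used 100000 permutations in numpy 2.4.6, two-sided, with ranks from scipy 1.17.1, and group differences all 293930 choices of 9 cows. DESeq2 1.42.0 was an alternative. The fits were tested on simulated data.

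Row names were symbols, and 23 rows held a date in place of one. A row without a name took 0.036 to 0.1508% of the counts on genes and stayed out, and 12.9581 to 31.8864% of all reads lay in no feature. No pair of cows agreed within counting noise (lowest chi-square per degree of freedom 42.246). Each cow was 1 sample. Cows were numbered within their group in the order of the records, so numbers only name them. Named genes were the 9 listed, the 10 with the highest median r to them, the 3 nearest to each, and, in each pathway list, the 3 with the highest mean, those with a median r of at least 0.8 and up to 5 with the lowest p under 0.05, with further genes chosen after their values were seen, and some genes are not reported here. Genes and lists were chosen with earlier results of these data known. Gene order came from the annotation of ARS-UCD2.0, another build than that of the counts, and no coordinates are given.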

Additional observations from a re-analysis of the deposited data

How the results depend on the processing

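No paired analysis was possible because each cow belonged to 1 group and the replicate numbers only name cows. Precision is limited by 21 cows and by low counts of OAS1X (15 reads in 1 cow), and p-values measure the spread between cows sampled once. The cell mixture was not measured apart from marker genes. The 9 alternatives were RLE size factors, the filterByExpr filter, DESeq2, covariates, a multiple regression, a Huber fit, a pseudocount of 1, the mapping set as a covariate and the 16 cows alone. Over them, 284 of 313 values were classed as unchanged. For estimates this meant the same direction and side of the adjusted threshold, and for counts a change of at most 1.5 times. Of the rest, 11 turned sign, 2 lost their call and 16 counts moved further. The HY minus LY and milk yield estimates had an adjusted p of 0.999 or more in the main fit, so keeping their side says little. With 1 cow left out, 1404 of 1512 values were classed as unchanged.

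The HY minus LY difference of OAS1X (-0.0159, log2) was 0.00746 with RLE factors, 0.0026 with filterByExpr, 0.0087 with DESeq2, 0.21 with covariates, 0.28 with the mapping set as a covariate and 0.212 within the 16 cows. The lactation slope of ISG15 (-0.0108) was 0.00041 with RLE factors, 0.00035 with DESeq2 and 0.054 with covariates. The milk yield slope of IRF7 (3.39) was -13.1 in the multiple regression, and r of IFI6 with OAS1X (-0.125) was 0.0108 within the 16 cows. Genes with p under 0.05 between HY and LY (580) numbered 169 with filterByExpr and 367 with DESeq2, which called 1 gene after adjustment where edgeR called 0. Genes past the adjusted threshold for lactation (3) numbered 865 with DESeq2 and 0 with filterByExpr, with covariates, with the mapping set as a covariate and within the 16 cows; of the 7, DESeq2 called none, with adjusted p of 0.0604 for MX1 and 0.0651 for MX2. Within the 16 cows, 0 of the 7 (3 in all cows) had p under 0.05 for lactation and 3 (1 in all cows) for the interaction, and 1 pair (3 in all cows) was called, with MX2 and RSAD2 (r = 0.513) and ISG15 and IFI6 (r = 0.662) lost. With filterByExpr, which tests fewer genes, 191 genes passed for milk yield (307), 99 for fat (284), 130 for protein (284) and 125 for solid (204). The multiple regression for protein called 1 of the 7 at p under 0.05 in place of 0. Where no construction is named, the cause was not tested.

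Leaving out 1 cow, the HY minus LY difference ranged from -0.344 to 0.659 for OAS1X, -0.354 to 0.406 for IRF7, -0.504 to 0.0547 for ISG15, -0.0189 to 0.785 for MX2 and -0.688 to 0.102 for RSAD2. For IFI6 it was 0.25 to 0.603. Of the 7, 0 to 1 had p under 0.05 (IFI6 without LY2, edgeR p = 0.0359, as against 0.397 without HY8). For lactation, 0 to 428 genes passed after adjustment (428 without LY9), 1 to 5 of the 7 had p under 0.05, and the slope of ISG15 was -0.104 to 0.405 (highest without LY2). For the interaction, 240 to 678 genes (678 without HY1) and 0 to 2 of the 7 had p under 0.05, and the estimates were -0.0636 to 0.483 for IFI6, -0.422 to 0.848 for OAS1X and -0.156 to 1.4 for MX2. The milk yield slope was -35 to 0.596 for RSAD2, -16.8 to 24.9 for IRF7 and -39.5 to 33.9 for ISG15. Genes with p under 0.05 numbered 265 to 489 for milk yield (489 without HY9) and 223 to 467 for fat (467 without HY2), and 0 to 1 of the 7 passed for milk yield, protein and solid. The called pairs numbered 2 to 5, and r was -0.183 to 0.167 for ISG15 with OAS1X, -0.144 to 0.0984 for MX1 with IFI6 and -0.311 to 0.00875 for RSAD2 with IFI6.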

Other observations

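Targets of type II interferon were listed separately, and 13 of 17 had a row. CXCL9, a chemokine that attracts T cells, had a mean of 5.719 CPM and a slope of -0.89 ± 0.28 log2 per 100 days of lactation (edgeR p = 0.00381, adjusted p = 0.0875). CD274, which encodes the checkpoint ligand PD-L1, had a mean of 83.48 CPM and a slope of 0.54 ± 0.23 (edgeR p = 0.0264, adjusted p = 0.17), and r = 0.56 with MX2. ICAM1, an adhesion molecule that leukocytes bind, had a mean of 794.0 CPM. The other 11 had p over 0.05 for lactation, where 22.3% of all genes had p under 0.05. None of the 13 differed between HY and LY at that threshold, where 4.7% of all genes did.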
